A study of Citrus reticulata and Citrus x clementina and Citrus x paradisi with 16 samples.

Results

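Part of the transcribed loci of mandarin ovules were assembled from the sequencing reads but matched no annotated gene of the clementine genome. A locus here is a stretch of a genome scaffold over which the study's assembly grouped overlapping transcripts. The table of the mandarin pair held 20373 loci, of which 15918 carried the identifier of a reference gene and the others a dash in its place. Loci were kept when the count of their most counted transcript reached 1 CPM (counts scaled to the library total) in at least 2 of 8 libraries. After 4 loci were set aside, 3437 of 4451 loci without a reference gene remained (77.2%), which was 18.3% of the 18749 loci that passed the same filter. The 15308 kept loci with a reference gene served for comparison. Near the threshold, the second-highest library of XLOC_001883 held 1.00 CPM and that of XLOC_002075, which was not kept, held 0.996 CPM.

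Most flowering plants make a single embryo per ovule by fertilisation, whereas polyembryonic citrus also forms embryos from cells of the nucellus, the maternal tissue around the embryo sac, in a process named nucellar embryony. An annotation of a genome lists genes predicted from its sequence and from known transcripts. Loci outside such a list can be long non-coding RNAs, transcripts antisense to a known gene, unspliced or intronic RNA, detached ends of known genes, transposon-derived RNA, or protein genes that the prediction missed. Assembly alone does not tell these apart.

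The ovules came from the polyembryonic Ponkan mandarin 'Huagan No.2' (PK) and the monoembryonic clementine 'Nour' (CM). Each was sampled at 3 days after flowering (DAF), before nucellar embryo initiation cells are seen (pre-NEI), and at 7 DAF, when these cells appear in PK (NEI), with 2 libraries a group. Flowers had been hand-pollinated with trifoliate orange, each library held RNA of pooled ovules, and the replicates of a group were collected in consecutive years. A single cultivar stood for each embryony type, so embryony and the other differences of these cultivars cannot be told apart. Reads of both cultivars were mapped to the clementine genome with mismatches allowed, so a lower count in PK and a sequence of PK that differs from clementine cannot be told apart either. Fewer cells with a transcript and less RNA per cell cannot be told apart in such pooled tissue.

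The library totals over loci ranged from 17854403 to 24912877 counts. No locus without a reference gene had a gene name in the deposited table, and no ovule marker could be matched by name, so the tissue label was not checked against marker genes. Over the members, log2(CPM + 1) values of the replicates of a group correlated at 0.847 to 0.931 (Pearson's r across 3437 loci, 4 pairs), a description across loci of libraries that share a mapping. Libraries of different cultivars correlated at 0.642 to 0.765 (16 pairs). Over loci with a reference gene the same ranges were 0.888 to 0.964 and 0.849 to 0.945.

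The loci without a reference gene were short and relatively poor in G and C. The median length of their most counted transcript was 773 bases (quartiles 502 and 1228), against 1863 bases (quartiles 1294 and 2617) for loci with a reference gene. Transcripts of under 500 bases made up 24.8% of the former and 1.03% of the latter. Median GC content was 38.11% against 41.39%, and the values spread more widely, from 5.56% to 73.12% against 29.29% to 57.59%. Both tails were fuller, since 75 loci without a reference gene exceeded 50% GC (2.18%, against 0.621%) and 55 fell below 30% (1.6%, against 1 locus of 15308).

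**Figure D1:**
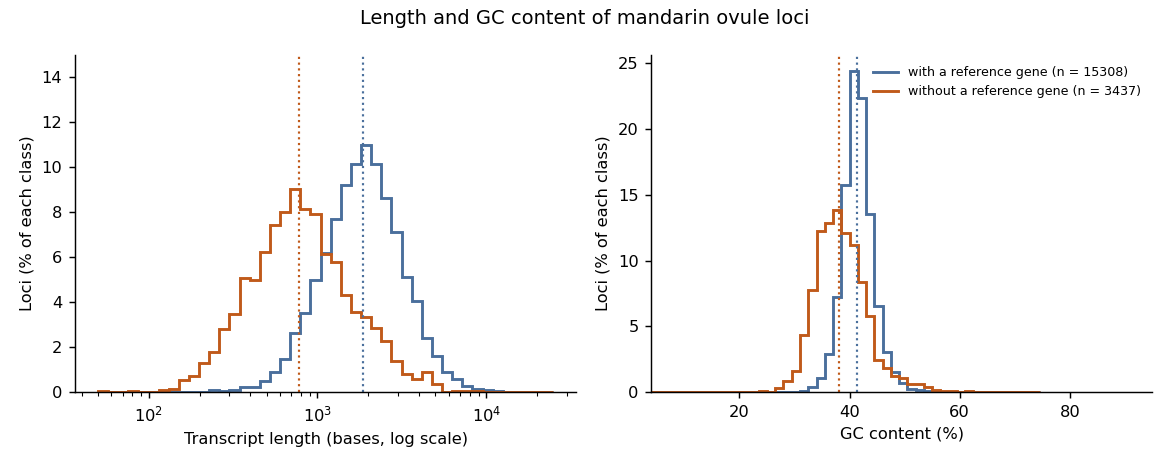
Distribution of transcript length (bases, log scale) and of GC content (%) over 3437 loci without and 15308 loci with a reference gene, as percent of each class per bin, with dotted lines at the medians. The loci without a reference gene peak at shorter lengths (median 773 against 1863 bases) and lower GC (median 38.11% against 41.39%), with longer tails in GC.

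The shortest loci showed what the extremes of the assembly hold. XLOC_013180 was 54 bases long with 5.56% GC (scaffold 5, 31504399 to 31504452), so it was almost wholly A and T. XLOC_001898 (scaffold 1, 7947390 to 7947466) had 76 bases and XLOC_001904 (scaffold 1, 8609851 to 8609929) had 79. At the other end, XLOC_011163 (scaffold 5, 34100227 to 34115348, plus strand) held a transcript of 8791 bases among 15 assembled transcripts. XLOC_020001 (scaffold 9, 29307700 to 29315176, minus strand) had 7460 bases and XLOC_014204 (scaffold 6, 2937705 to 2944520, minus strand) had 6620.

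A strand was assigned to 1333 of the 3437 loci, 645 on the plus and 688 on the minus strand, and 2104 (61.2%) had none. Every one of the 15308 loci with a reference gene had a strand. Among loci with a single assembled transcript, the deposited length equalled the genomic span to the base in 1236 of 1981 loci without strand (62.4%) and in 126 of 556 with one (22.7%), against 223 of 3607 loci with a reference gene (6.18%). Many others fell short of the span by few bases, and within 50 bases of it lay 1759 (88.8%), 154 (27.7%) and 708 (19.6%). A larger gap, which leaves room for an intron, was found in 222 loci without strand and 402 with one. A single transcript was assembled at 73.8% of loci without and 23.6% of loci with a reference gene. Loci with a strand had a median length of 1070 bases and a median mean level of 4.04 CPM, and those without had 662 bases and 1.57 CPM.

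The positions of the loci, compared with all 15918 loci of the table that carried a reference gene, fell into 3 sets. Outside any such locus lay 1962 (57.1%), overlapping one lay 1443 (42.0%), and on scaffolds with none lay 32 (0.931%). Annotated genes without a locus in the table could not be considered. Of the overlapping loci, 1231 were inside the span of the other locus. The strand was unknown in 1005 of the overlapping loci, opposite to the annotated locus in 324 and the same in 114. Loci inside an annotated span without strand, 943 in all, were shorter than the rest, with a median of 523 bases and 35.77% GC. Loci overlapping on the opposite strand, the arrangement of natural antisense transcripts, had a median of 1184 bases and 4.59 CPM.

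The distance of outside loci to the nearest annotated one varied widely. The median distance was 4421 bases, with quartiles of 1116 and 16810 bases. Within 1 kb lay 459 loci, between 1 and 10 kb 832, and beyond 10 kb 671. The farthest 3 were on scaffold 5. XLOC_012943 (scaffold 5, 10844120 to 10844296) was 492393 bases from the nearest locus with a reference gene, XLOC_012941 (scaffold 5, 10476969 to 10477600) was 467360 bases away, and XLOC_012940 (scaffold 5, 10445816 to 10446289) was 436207 bases away. Scaffold 5 carried more unannotated loci than its share of genes, with 692 of 3437 (20.1%) against 11.8% of loci with a reference gene. That was 38.2 per 100 annotated loci, and the other 8 large scaffolds had 17.8 to 24.2. The densest megabase, from 2 to 3 Mb of scaffold 5, held 54 loci without and 25 with a reference gene.

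**Figure D2:**
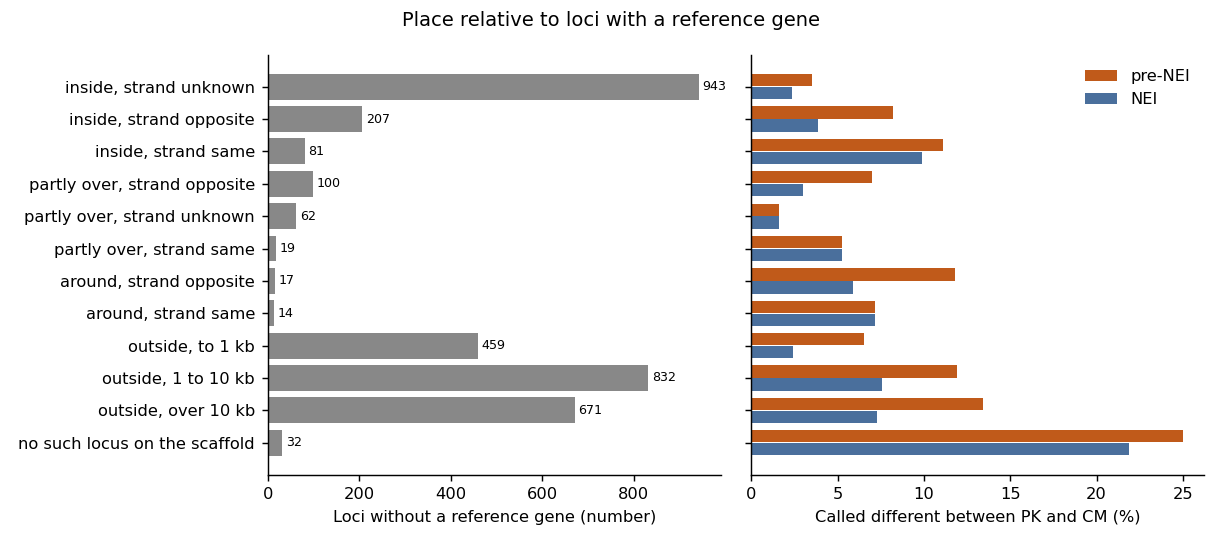
Number of loci without a reference gene by place relative to loci with one (left, 3437 loci) and percent of each class called different between PK and CM at pre-NEI and NEI (right). Loci inside an annotated span without known strand are the largest single class (943) and had 3.5% called at pre-NEI, against 13.4% of the 671 loci over 10 kb away, with loci kept through 1 cultivar alone included.

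Many of the loci also overlapped each other. They formed 2862 separate stretches, 2554 of which held 1 locus, and 883 loci overlapped at least 1 other. Of 827 overlapping pairs, 32 had counts within 5% of each other in each of the 8 libraries, and 9 of these 32 pairs were on opposite strands. XLOC_003961 on the minus strand of scaffold 2 (27864321 to 27866808) and the strandless XLOC_004649 within it (27864849 to 27866516) had 133 and 133 CPM in PK pre-NEI replicate 1, 493 and 493 in CM pre-NEI replicate 1. How the counting used strand is not given in the sources used here, so reads of overlapping loci cannot be told apart, and such pairs are not separate observations.

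The levels of these loci were low. The median over members was 1.44 to 2.55 CPM in the 8 libraries, against 14.7 to 26.9 CPM for loci with a reference gene. As a mean over the libraries it was 2.08 against 22.8 CPM, and per kilobase of transcript 2.98 against 11.5, so the gap was smaller but remained per length. Only 51 members (1.48%) averaged over 100 CPM, against 15.6% of loci with a reference gene. Together the members took 3.43% to 4.77% of the counts of a library. At least 1 CPM was reached in all 8 libraries by 1243 members (36.2%) and by 82.7% of loci with a reference gene.

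Of the 5 loci with the highest mean level, 4 were GC-rich and 3 lay inside an annotated locus on its opposite strand. XLOC_017999 (scaffold 8, 16207956 to 16218807, 51.96% GC) held 1451 and 600 CPM in PK pre-NEI, 1613 and 952 in PK NEI, 2398 and 2617 in CM pre-NEI, and 5888 and 911 in CM NEI. Its neighbour XLOC_017998 (scaffold 8, 16162042 to 16205152, 51.74% GC) held 1112 and 586, 1174 and 878, 1904 and 2941, and 6294 and 786 CPM in the same order of groups and replicates. Both, like XLOC_001335 (scaffold 1, 15442341 to 15471599, 50.55% GC) and XLOC_017249 (scaffold 8, 11288224 to 11297561, 61.53% GC), were highest in CM NEI replicate 1, at 2729 CPM for XLOC_001335 and 2174 CPM for XLOC_017249 in that library, and lower in CM NEI replicate 2 at 317 and 357 CPM. None of these 4 loci was called between the cultivars, and adjusted p ranged from 0.337 to 0.402 at pre-NEI and from 0.508 to 0.590 at NEI (edgeR quasi-likelihood test). XLOC_007625 (scaffold 3, 45176249 to 45178217, 40.24% GC) was high in every library, at 1109 and 2107 CPM in PK pre-NEI, 1280 and 1096 in PK NEI, 1050 and 1511 in CM pre-NEI, and 1330 and 2461 in CM NEI.

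The share of a library held by such loci varied with 1 library. The 7 members above both 50% GC and a mean of 300 CPM, a set chosen after its values were seen, took 1.97% of the counts of CM NEI replicate 1 and 0.248% to 0.924% of the other 7 libraries. In that library 6 of the 7 had their highest level. Of the 7, XLOC_000403, XLOC_000405 and XLOC_001335 lay in 1 stretch of overlapping loci, so they may share reads and are not separate observations. Without the 7 loci the members took 2.72% to 3.45% of a library.

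The comparison of PK with CM at each stage asked which transcripts differ between a polyembryonic and a monoembryonic ovule. A locus was called different at an adjusted p (Benjamini-Hochberg over all 18749 loci) under 0.05 and a log2 fold change of at least 1 in edgeR's quasi-likelihood test over the 8 libraries. At pre-NEI 298 of 3437 loci without a reference gene were called (8.67%), against a background of 3.6% over all loci tested and 2.44% (374 of 15308) of loci with a reference gene. Of these, 89 were higher in PK (background 1.12%) and 209 were lower in PK (background 2.48%). At NEI 175 were called (5.09%), against 1.64% over all loci and 0.849% (130) of loci with a reference gene. Here 58 were higher in PK (background 0.496%) and 117 lower (background 1.14%). Over all members the median log2 fold change of PK over CM was -0.37 at pre-NEI and -0.07 at NEI, with medians over all tested loci of 0.004 and 0.016. With groups at 0 counts set to their bound the members' medians were again -0.37 and -0.07.

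The filter itself favoured loci seen in 1 cultivar, since a locus could pass through the libraries of that cultivar alone. Of the members, 302 reached 1 CPM in PK libraries only and 509 in CM libraries only, 23.6% together, against 3.18% of loci with a reference gene. These 811 members held 242 of the 298 calls at pre-NEI and 147 of the 175 at NEI. Among the 2626 members that reached 1 CPM in at least 1 library of each cultivar, 56 were called at pre-NEI (2.13%) and 28 at NEI (1.07%), against 1.75% and 0.385% of 14821 such loci with a reference gene. Among the 1243 members at 1 CPM or more in all 8 libraries the shares were 2.33% and 0.724%, against 1.67% and 0.284%. Of the calls among loci without a reference gene, 81.2% and 84.0% thus lay in loci under 1 CPM in all libraries of 1 cultivar.

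In the called loci the lower cultivar was often empty. At pre-NEI 124 of the 298 had no count in either library of the lower group (41.6%, against 13.1% of called loci with a reference gene), and at NEI 49 of 175 (28.0%, against 19.2%). The groups did not overlap in any of the 298 and 175 calls. The same held for all 374 and 130 called loci with a reference gene. By mean level, and with the loci kept through 1 cultivar included, 11.8% of members against 4.0% of loci with a reference gene were called at pre-NEI between 2 and 5 CPM, 9.52% against 2.39% between 10 and 30 CPM, and 7.84% against 1.51% above 100 CPM, where 4 of 51 members were called. Among loci at 1 CPM or more in both cultivars, a restriction added after seeing the data, the share was higher in members in 5 of 7 bins at pre-NEI and 6 of 7 at NEI. At pre-NEI it was then 1.93% against 1.41% between 2 and 5 CPM, 1.95% against 2.65% between 5 and 10 CPM, and 6.25% against 2.23% between 10 and 30 CPM.

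**Figure D3:**
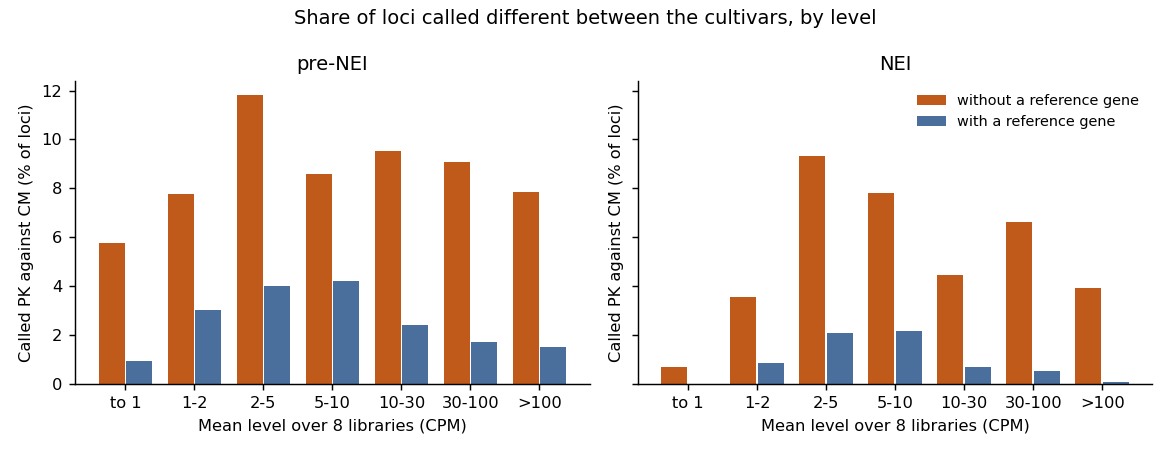
Percent of loci called different between PK and CM at pre-NEI (left) and NEI (right) by mean level over 8 libraries (CPM), for loci without and with a reference gene. Bars for loci without a reference gene are higher in every bin, 11.8% against 4.0% between 2 and 5 CPM at pre-NEI, and include loci kept through 1 cultivar alone.

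These counts rested strongly on having both replicates. For the refits without 1 library no share over all loci is given, so whether members moved more than other loci is not shown. Without PK pre-NEI replicate 1 or 2, 5 or 2 members were called at pre-NEI, and without CM pre-NEI replicate 1 or 2, 50 or 2. Leaving out CM NEI replicate 1 or 2 gave 180 or 186, and leaving out PK NEI replicate 1 or 2 gave 285 or 296. At NEI the count fell from 175 to 9 and 15 without PK NEI replicate 1 and 2, to 2 and 40 without CM NEI replicate 1 and 2, to 75 and 72 without PK pre-NEI replicate 1 and 2, and to 24 and 23 without CM pre-NEI replicate 1 and 2. With the replicate number as a block (the replicate block), 592 members were called at pre-NEI (179 higher in PK, background 10.7%). At NEI 313 were called with it (116 higher, background 3.33%).

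Of the 318 members called at either stage, 155 were called in the same direction at both, 46 higher and 109 lower in PK (background over all loci 1.39%, 0.352% higher and 1.03% lower), as were 103 loci with a reference gene. The comparisons set different libraries against each other, but they share the cultivars and 1 estimate of spread over all 8 libraries. They are therefore not separate tests. With 4 libraries per fit, 0 members were called at NEI and 0 at both stages. Over all loci tested, 3.85% were called at either stage. A call at pre-NEI only was made for 143 members and at NEI only for 20. Over all loci tested, more were likewise called at pre-NEI (3.6%) than at NEI (1.64%). The test of edgeR called none in opposite directions, and DESeq2 called 1, XLOC_007369, which is described with the stage comparisons. That a locus was called at 1 stage does not show that the stages differed, and the test of that difference is given further on.

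**Figure D4:**
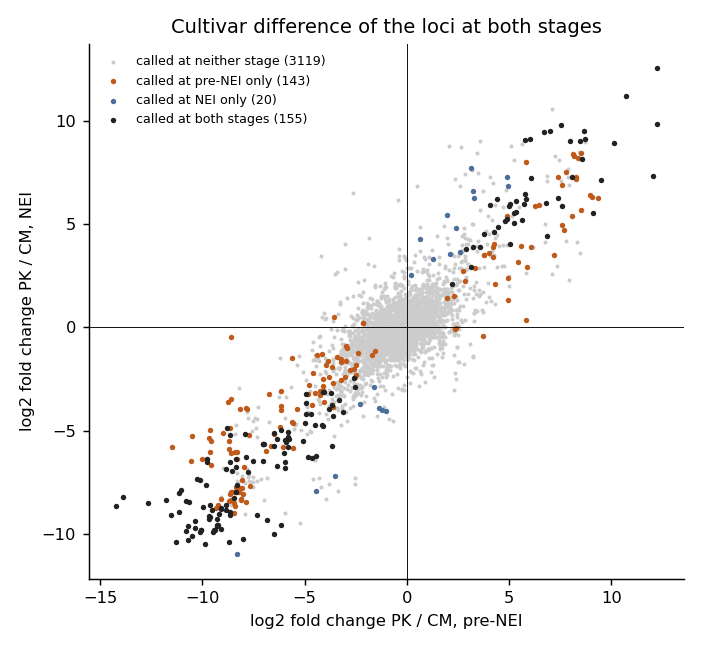
Fitted log2 fold change of PK over CM at pre-NEI (x axis) and NEI (y axis) for 3437 loci without a reference gene, coloured by the stage of the call. The 155 loci called at both stages lie in the quadrants of equal sign, 46 higher in PK and 109 lower, and the most extreme values, of loci with no count in 1 group, depend on the prior count of the fit.

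Loci read in clementine and hardly in Ponkan led the fitted differences at pre-NEI, where fitted values against an empty group depend on the prior count. XLOC_004706 (scaffold 2, 31363019 to 31364235, no strand, 1217 bases, 44.7% GC, 5180 bases from the nearest annotated locus) had 107 and 114 CPM in CM pre-NEI and 103 and 116 in CM NEI. In PK it had 0 and 0 at pre-NEI and 0.212 and 0.376 at NEI. All 4 CM libraries were far above all 4 PK libraries, by at least 708-fold at pre-NEI against a floor of 3 counts per library (adjusted p = 0.00213) and with a log2 fold change of PK over CM of -8.63 ± 0.45 (SE) at NEI (adjusted p = 0.00358, edgeR, n = 2 a group). XLOC_008863 (scaffold 4, 14058100 to 14059490, plus strand, 1391 bases) had 80.5 and 91.8 CPM in CM pre-NEI and 72.6 and 96.7 in CM NEI, against 0 and 0 and then 0.265 and 0.322 in PK. It was at least 552-fold higher in CM at pre-NEI (adjusted p = 0.00213, edgeR) and its log2 fold change was -8.22 ± 0.39 at NEI (adjusted p = 0.00358, edgeR). Both kept their calls at both stages when any 1 of the 8 libraries was left out.

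The other 4 of the 6 largest differences of that sign at pre-NEI were loci with no count in either PK pre-NEI library. XLOC_007655 (scaffold 3, 45693230 to 45694310, 392 bases from an annotated locus) had 38.9 and 36.0 CPM in CM pre-NEI and 29.8 and 27.4 in CM NEI, and 0, 0, 0.053 and 0.107 in the PK libraries, at least 240-fold lower at pre-NEI (adjusted p = 0.00636, edgeR). XLOC_013566 (scaffold 6, 13107158 to 13110735, 13 transcripts) had 13.5, 20.4, 10.7 and 24.7 CPM in CM and counts in 1 PK library only, 0.0536 CPM in PK NEI replicate 2, and was at least 109-fold lower at pre-NEI (adjusted p = 0.00730, edgeR). XLOC_015239 lay inside an annotated locus on the opposite strand (scaffold 7, 804558 to 806326) and had 20.1, 20.6, 15 and 21.6 CPM in CM, with 0.107 CPM in PK NEI replicate 2 and no count in the other PK libraries, at least 131-fold lower at pre-NEI (adjusted p = 0.00730, edgeR). XLOC_017996 (scaffold 8, 15746165 to 15749277) was uneven, at 7.55 and 25.3 CPM in CM pre-NEI and 1.33 and 31.1 in CM NEI, and its pre-NEI call (adjusted p = 0.0486, edgeR) was lost without any 1 of 6 libraries, those of CM NEI excepted. At NEI it was not called (adjusted p = 0.161, edgeR). The pre-NEI calls of the other 3 did not pass when replicate 2 of either cultivar at that stage was left out, nor did those of XLOC_013566 and XLOC_015239 when replicate 1 of PK was.

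At the other end were loci read in Ponkan and absent from clementine libraries. XLOC_002101 (scaffold 10, 296882 to 301322, minus strand, 1808 bases, 11 transcripts, 12664 bases from the nearest annotated locus) had 33.2 and 37.5 CPM in PK pre-NEI and 37.2 and 38.9 in PK NEI, and no count in any CM library. It was at least 259-fold higher in PK at pre-NEI (adjusted p = 0.00636) and at least 238-fold at NEI (adjusted p = 0.00870, edgeR, n = 2 a group). XLOC_005184 (scaffold 3, 7297383 to 7300812, plus strand, 2527 bases) had 29.9 and 39.9 CPM, then 29.6 and 34.0 CPM in PK, and 1 count in the 4 CM libraries, 0.0554 CPM in CM NEI replicate 2. Its adjusted p was 0.00636 and 0.00870, and at NEI the ratio was 1190 with an exact 95% binomial counting interval of 214 to 47200. Both loci lost the pre-NEI call when either PK pre-NEI library or replicate 2 of CM pre-NEI was left out, and the NEI call without CM NEI replicate 1. Since the reads were mapped to the clementine genome, the sequence of both loci is part of the clementine reference.

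XLOC_013376 (scaffold 6, 571658 to 574913, 9 transcripts) had 10.4, 14.1, 13.6 and 17.0 CPM in the PK libraries and no count in CM, at least 90-fold higher at pre-NEI (adjusted p = 0.0106) and at least 95.7-fold at NEI (adjusted p = 0.0138, edgeR). XLOC_009575 (scaffold 4, 3314077 to 3315714) had 30.7 and 49.9, then 22.3 and 37.4 CPM in PK and 1 and 2 counts in the CM groups (adjusted p = 0.00665 and 0.0113, edgeR). XLOC_004777, on the small scaffold 2042 (1716 to 2385) where no annotated locus lay, had 32.2 and 28.7, then 25.4 and 14.5 CPM in PK, and counts in CM NEI replicate 1 alone, at 0.205 CPM. It was at least 224-fold higher at pre-NEI, where its call had an adjusted p of 0.0177 and was lost without any 1 of the 4 pre-NEI libraries, and that at NEI (adjusted p = 0.0385, edgeR) without any 1 of the 8. XLOC_001417 (scaffold 1, 19794174 to 19795314, 51.88% GC) was lower, at 4.94, 5.66, 4.88 and 4.34 CPM in PK, with 1 count in CM, at least 38.9-fold higher at pre-NEI (adjusted p = 0.0160 ; at NEI adjusted p = 0.0284, edgeR). The call of XLOC_013376 at NEI was lost without PK NEI replicate 1 or 2 or CM NEI replicate 1, that of XLOC_009575 without CM NEI replicate 1, and that of XLOC_001417 without any 1 of the 8 libraries. The pre-NEI call of XLOC_009575 was lost without either PK pre-NEI library or CM pre-NEI replicate 2. That of XLOC_001417 was lost without any 1 of the 4 pre-NEI libraries, and for XLOC_013376 the pre-NEI refits are not given here.

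**Figure D5:**
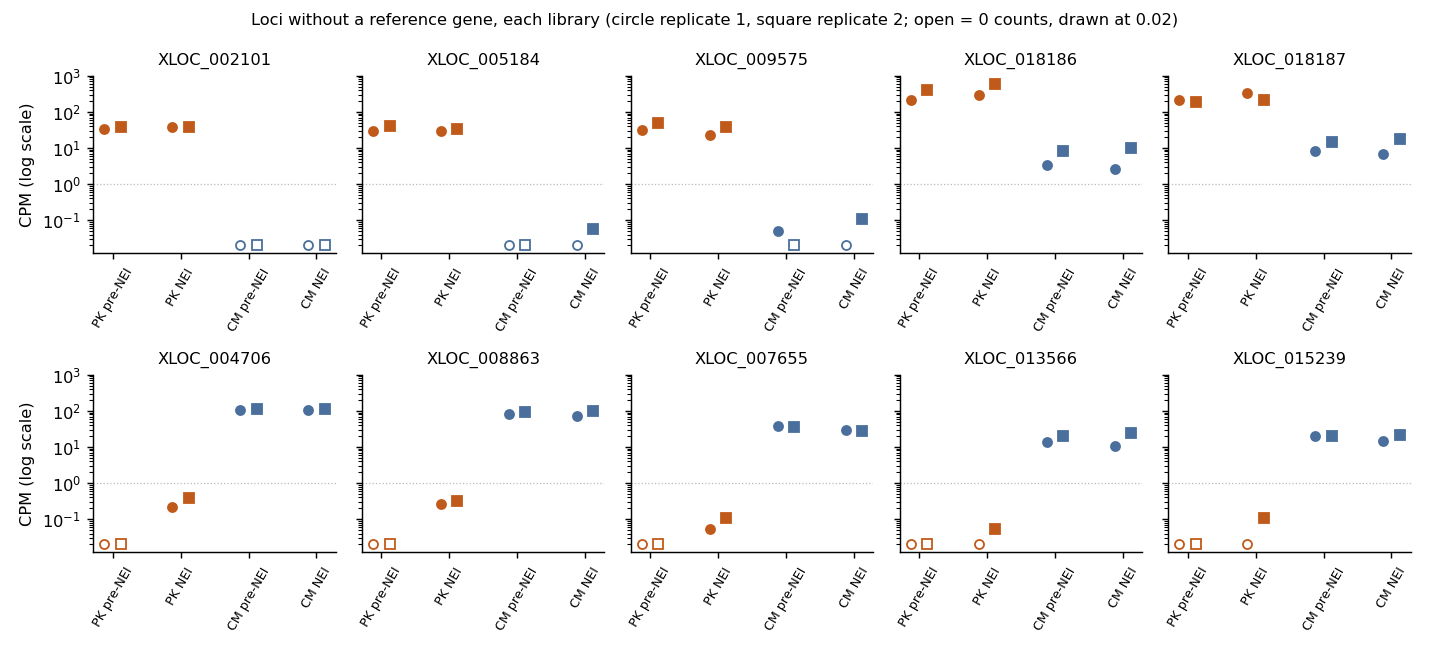
Level in each of 8 libraries (CPM, log scale, circle for replicate 1 and square for replicate 2) of 10 loci without a reference gene, the upper row higher in PK and the lower row higher in CM. Open symbols mark 0 counts and are drawn at 0.02. XLOC_018186 and XLOC_018187 were chosen after their values were seen, with CM libraries at 2.67 to 17.4 CPM and PK libraries at 185 to 580 CPM.

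Further loci entered by the size of their difference at NEI. XLOC_001887, XLOC_007048 and XLOC_000188 were higher in PK, where XLOC_001887 held 5.95, 7.22, 5.36 and 6.17 CPM, XLOC_007048, on the opposite strand inside an annotated locus, held 3.41, 2.30, 5.20 and 4.08 CPM, and XLOC_000188 held 4.56, 4.71, 2.70 and 6.87 CPM. None had a count in CM NEI, and at NEI they were at least 36.0-fold, 29.0-fold and 29.9-fold higher (adjusted p = 0.0197, 0.0373 and 0.0347, edgeR), and each lost this call without any 1 of the 8 libraries. Lower in PK were XLOC_010958, XLOC_014385, XLOC_004280, XLOC_009682 and XLOC_001405, each with no count in PK NEI and 4.42 to 11.7 CPM in the CM NEI libraries, which made them at least 47.8-fold to 53.8-fold lower (adjusted p from 0.0143 to 0.0230, edgeR). Each of these 5 calls was lost without any 1 of 6 libraries, those of PK pre-NEI excepted. XLOC_018618 (scaffold 9, 1249934 to 1250653) had 15.9 and 5.70 CPM in CM NEI, 2.18 and 1.49 in CM pre-NEI and no count in PK, and its call (adjusted p = 0.0437, edgeR) was lost without any 1 of the 8 libraries.

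Loci beside the thresholds show how close some calls were. XLOC_012812 and XLOC_015016 were the last called at pre-NEI, and XLOC_013147 and XLOC_005714 the first that were not, all 4 at an adjusted p of 0.05 to 0.0502 after rounding (edgeR). XLOC_012812 held 1.06, 1.40, 0.848 and 1.13 CPM in PK and no count in CM. At NEI XLOC_018619 (0.0497) and XLOC_003373 (0.0496) passed, and XLOC_005536 (0.0509) and XLOC_002203 (0.0513) did not (edgeR, adjusted p). XLOC_002203 had 19.0, 19.8, 37.0 and 9.30 CPM in CM and at most 0.795 CPM in PK, so loci with large differences lay on either side of the threshold. With the replicate block each of these 8 loci had an adjusted p of 0.0113 to 0.0315 at the stage concerned (edgeR).

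Loci near absence in 1 cultivar were counted directly. A locus counted as read in 1 cultivar only when it had under 3 counts in each of the 4 libraries of the other cultivar and at least 1 CPM in each of its own 4. This held for 134 members (3.90%, background 0.997%) and for 51 loci with a reference gene (0.333%). In PK only were 41 members (background 0.283%) and in CM only 93 (background 0.715%), and 10 and 44 of them had no count at all in the other cultivar. A count of 0 in a library allowed a level of up to 0.120 to 0.168 CPM. The 41 loci of PK lay in 39 separate stretches on 10 scaffolds, with a median of 3.44 CPM (range 1.62 to 36.7) in PK, and the 93 of CM in 82 stretches on 12 scaffolds, with a median of 4.28 CPM (1.17 to 33.0) in CM. Most lay outside annotated loci, 31 of 41 and 74 of 93, against 57.1% of all members. By this definition all these loci passed the filter through 1 cultivar alone. Members also had lower levels than loci with a reference gene (median 2.08 against 22.8 CPM). The part of filter and level in these shares was not tested.

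Place and strand went with the share of calls, as a description over loci that are not independent. At pre-NEI 13.3% of the 1333 loci with a strand were called and 5.75% of the 2104 without, and at NEI 8.33% and 3.04%. Loci outside annotated ones were called in 11.2% at pre-NEI, those overlapping one in 4.92%. Of the 32 loci on scaffolds without an annotated locus 8 were called at pre-NEI and 7 at NEI. These shares include the loci kept through 1 cultivar alone, which held most calls. Among loci at 1 CPM or more in both cultivars, 3.61% of 1052 with a strand and 1.14% of 1574 without were called at pre-NEI, and 1.43% and 0.826% at NEI. In the same set 2.95% of 1457 outside loci and 0.961% of 1145 overlapping ones were called at pre-NEI. Levels differed too, since members with a strand had a median of 4.04 CPM and those without 1.57, and their part in these shares was not tested. Restricted to the 1994 loci without overlap, 227 were called at pre-NEI and 130 at NEI. Counting each stretch of overlapping loci once left 254 stretches with a call at pre-NEI and 146 at NEI.

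Loci inside annotated ones moved partly with their host. Across 943 loci inside a host with unknown strand, the log2 fold change of PK over CM correlated with that of the host at 0.523 at pre-NEI and 0.400 at NEI (Spearman's rho across loci, which share libraries and possibly reads with the host). For 207 loci on the opposite strand of a host the values were 0.474 and 0.423. With the nearest annotated locus, where that was tested, the correlation was 0.336 and 0.358 within 1 kb (449 loci), and 0.158 and 0.128 beyond 10 kb (640 loci). Of 33 called loci of unknown strand inside a host at pre-NEI, 3 had a host called the same way, 29 a host not called and 1 a host called the opposite way, and at NEI 5 of 22 had a host called the same way and 17 a host not called. For called loci on the opposite strand of a host, 3 of 17 at pre-NEI and 2 of 8 at NEI had a host called the same way. Of all loci with a reference gene, 2.44% and 0.849% were called in either direction at these stages.

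Some calls stood side by side on the scaffolds, and these windows were chosen after their values were seen. Over all loci tested, 1.26% were called higher and 2.59% lower in PK at either stage, and the counts of the windows, picked for their calls, are a description. On scaffold 8 between 22 and 23 Mb, 6 of 18 members were called higher in PK at either stage and none lower, in 3 separate stretches. The strongest, XLOC_018186 (22582359 to 22585793, minus strand, 1858 bases), had 210 and 396 CPM in PK pre-NEI, 291 and 580 in PK NEI, 3.35 and 8.51 in CM pre-NEI, and 2.67 and 9.85 in CM NEI. Its log2 fold change was 5.33 ± 0.71 at pre-NEI and 6.15 ± 0.74 at NEI (SE, adjusted p = 0.0151 and 0.0151, edgeR). XLOC_018187 (22587042 to 22591126, minus strand) had 211 and 185, 330 and 214, 8.47 and 14.8, and 6.93 and 17.4 CPM, with log2 fold changes of 3.77 ± 0.49 and 4.53 ± 0.51 (adjusted p = 0.0136 and 0.0138, edgeR). XLOC_018503 overlapped the first of these and XLOC_018505 and XLOC_018506 the second, so their calls are not separate observations. Apart lay XLOC_017475 (22120263 to 22124650, plus strand), which had 3.41, 4.59, 4.40 and 2.47 CPM in PK and 2 counts in CM. All 4 PK libraries exceeded all 4 CM libraries for each locus named here. The pre-NEI calls of XLOC_018186 were lost without any 1 of the 4 pre-NEI libraries, and its NEI call without any 1 of the 4 NEI libraries.

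Scaffold 5 between 1 and 2 Mb held 7 of 33 members called higher in PK, in 5 stretches, and none lower. XLOC_011735 (1853301 to 1854906, minus strand) led with 18.5, 17.8, 16.4 and 12.8 CPM in PK against 0.203 to 0.321 in CM, a log2 fold change of 5.75 ± 0.55 at pre-NEI and 5.99 ± 0.57 at NEI (adjusted p = 0.00689 and 0.0106, edgeR). Windows with calls in the other direction were 19 to 20, 27 to 28 and 40 to 41 Mb of scaffold 3 and 26 to 27 Mb of scaffold 5, each with 6 members lower in PK of 13 to 18, in 3 to 5 stretches. The window from 27 to 28 Mb of scaffold 3 also held 1 member called higher in PK, XLOC_005537, and the others held none. XLOC_007394 (scaffold 3, 40591220 to 40593449), on the opposite strand inside an annotated locus, had 12.6, 10.3, 16.7 and 10.6 CPM in CM and 0.112 to 0.376 in PK (adjusted p = 0.0104 at pre-NEI and 0.0151 at NEI, edgeR). XLOC_012048 (scaffold 5, 26289129 to 26291868) had 9.84, 11.8, 15.6 and 17.0 CPM in CM and 0.144 to 0.280 in PK (adjusted p = 0.00689 at pre-NEI and 0.0100 at NEI, edgeR).

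The study's list of genes shared by both cultivar pairs gave a description from sequence similarity to 149 of the loci without a reference gene, 34 of which named a function, and 128 and 32 of these were members. That list was chosen on these libraries and is no independent evidence of any direction. Of the 32, 5 were called higher and 8 lower in PK at pre-NEI (over all loci 1.12% and 2.48%), and 7 higher and 6 lower at NEI (over all loci 0.496% and 1.14%). Over all 128, 39 were called higher and 39 lower at pre-NEI, and 26 and 27 at NEI. The descriptions are similarity hits and not tested functions.

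A phenylpropanoid enzyme and an esterase were each represented by a pair of entries. XLOC_015736 (scaffold 7, 13769711 to 13772360), described as a hydroxycinnamoyl-CoA shikimate/quinate hydroxycinnamoyltransferase, an enzyme of the route to lignin and related phenolics, had 120 and 124 CPM in PK pre-NEI, 39.2 and 41.2 in PK NEI, 21.4 and 14.7 in CM pre-NEI, and 31.3 and 48.6 in CM NEI. It was higher in PK at pre-NEI by 2.43 ± 0.30 on the log2 scale (adjusted p = 0.0122, edgeR), while at NEI the groups overlapped, with a log2 fold change of -0.04. XLOC_016501 overlapped it on the other strand and gave 2.36 ± 0.31 (adjusted p = 0.0149, edgeR). Both lost the call without either PK pre-NEI library or CM pre-NEI replicate 2. XLOC_018361 (scaffold 8, 3323311 to 3323982) and XLOC_018364 (scaffold 8, 3336983 to 3338275), both described as a probable carboxylesterase 2, a hydrolase of esters, had 39.2, 59.4, 133 and 33.9 CPM and 70.3, 111, 258 and 61.0 CPM in PK. In CM, XLOC_018361 held 6.08, 2.05, 1.28 and 0.720 CPM and XLOC_018364 held 12.2, 3.09, 2.00 and 1.05. Both were called at NEI (log2 fold change 6.27 ± 1.02 and 6.59 ± 1.14, adjusted p = 0.0370 and 0.0416, edgeR), both lost that call without any 1 of the 8 libraries, and at pre-NEI both passed with the replicate block (adjusted p = 0.0148 and 0.0169) and not without it (0.0905 and 0.115).

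Of entries described as peroxidase, a class of enzymes that oxidise phenolics with hydrogen peroxide, there were 3. XLOC_004476 and XLOC_004477 lay without strand inside the annotated locus of Ciclev10015779m.g on scaffold 2, and XLOC_012940 was the locus on scaffold 5 far from any annotated one. XLOC_004476 had 9.31, 9.80, 9.28 and 6.28 CPM in PK and 0.359 to 1.12 in CM, and was called at both stages (adjusted p = 0.0343 and 0.0270, edgeR). XLOC_012940 had 7.77 and 8.85, then 16.1 and 19.9 CPM in PK, and 3.90 and 7.75, then 2.46 and 3.32 CPM in CM, and was called at NEI only (log2 fold change 2.56 ± 0.47, adjusted p = 0.0466, edgeR), as was XLOC_004477 (adjusted p = 0.0385, edgeR). These NEI calls were lost without any 1 of the 8 libraries.

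Among entries lower in PK, 2 overlapping loci of the small scaffold 129 were described as biotin synthase-like, after the enzyme of the last step of biotin synthesis. XLOC_002116 (20786 to 22301) had 4.31 and 6.70 CPM in CM pre-NEI and 7.45 and 12.7 in CM NEI, against 0.106 to 0.336 in PK, a log2 fold change of -4.45 ± 0.56 and -6.22 ± 0.63 (adjusted p = 0.0128 and 0.0113, edgeR), and XLOC_002117 held 4.97 and 6.62, then 6.83 and 10.7 CPM in CM (adjusted p = 0.0123 and 0.0113, edgeR). Of 6 entries described as disease resistance or leucine-rich repeat proteins, which in plants often sense pathogens, 2 were lower in PK at both stages and the other 4 were not called. With the replicate block 3 of these 4, XLOC_010693, XLOC_011774 and XLOC_012029, passed as lower in PK at pre-NEI (adjusted p = 0.0310, 0.0305 and 0.0397, edgeR). XLOC_010681 (scaffold 5, 3996034 to 3999963) had 3.96, 8.95, 10.4 and 14.2 CPM in CM and 0.106 to 0.432 in PK (log2 fold change -4.81 ± 0.80 and -6.30 ± 0.87, adjusted p = 0.0273 and 0.0226, edgeR). Its pre-NEI call was lost without any 1 library of PK pre-NEI or CM, and its NEI call without any 1 of PK NEI or CM. XLOC_013197 had 1.22 to 4.10 CPM in CM and 0.106 to 0.144 in PK. XLOC_011064, a putative phosphoprotein phosphatase, had 1.22, 2.53, 2.98 and 3.6 CPM in CM and 1 count in PK, and was lower in PK at both stages (adjusted p = 0.0317 and 0.0483, edgeR). Its pre-NEI call was lost without any 1 library of PK pre-NEI or CM, and its NEI call without any 1 of the 8 libraries. XLOC_012194, of the same description, was not called, at 1.52, 1.24, 4.31 and 0.996 CPM in CM and no count in PK, though it passed at pre-NEI with the replicate block (adjusted p = 0.0333, edgeR).

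Heat shock entries differed among themselves. XLOC_013299 (scaffold 5, 39256009 to 39256398) had 3.14, 2.61, 2.57 and 4.59 CPM in CM and at most 0.096 in PK and was lower in PK at both stages (adjusted p = 0.0348 and 0.0422, edgeR), while the overlapping XLOC_010064 and XLOC_010545, near-equal in every library, were not called, at 4.51 to 11.2 CPM in PK and 0.254 to 1.59 in CM for XLOC_010064, and passed as higher in PK at pre-NEI with the replicate block (adjusted p = 0.0383 and 0.0380, edgeR). Of 3 entries named after parts of retroelements, XLOC_008257 was lower in PK at pre-NEI, with 1.17, 1.16, 1.18 and 1.16 CPM in CM and no count in PK (adjusted p = 0.0461, edgeR). This call was lost without any 1 library of PK pre-NEI or CM. XLOC_010442 held 1.44, 1.51, 0.477 and 1.77 CPM in PK and at most 0.161 in CM and was not called (adjusted p = 0.140 and 0.0717, edgeR). XLOC_020161 held 2.40, 4.26, 27.5 and 3.27 CPM in PK and 3 counts in all of CM and was not called (adjusted p = 0.0946 and 0.0577, and 0.0306 and 0.0229 with the replicate block, edgeR).

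Other named entries ran both ways. XLOC_012225 (scaffold 5, 32974730 to 32977313), a putative vacuole membrane protein that overlaps an annotated locus on the opposite strand, had 12.7, 26.6, 12.5 and 21.5 CPM in PK and at most 0.254 in CM, with log2 fold changes of 6.06 ± 0.85 and 7.22 ± 0.93 (adjusted p = 0.0173 and 0.0190, edgeR). XLOC_005537, described as an alkenal double bond reductase, a class of enzymes that reduces reactive carbonyls, had 2.59, 3.58, 2.49 and 4.88 CPM in PK and no count in CM, at least 22.7-fold and 23.0-fold higher (adjusted p = 0.0289 and 0.0396, edgeR). XLOC_010933, a putative lipid binding protein, was lower in PK at pre-NEI (log2 fold change -3.04 ± 0.62, adjusted p = 0.0467, edgeR). This call and the NEI call of XLOC_005537 were lost without any 1 of the 8 libraries. The pre-NEI call of XLOC_005537 was lost without any 1 of the 4 pre-NEI libraries. XLOC_001371, a metallothionein-like entry on the opposite strand inside an annotated locus, held 28.0 to 43.4 CPM in PK and 49.9 to 82.5 in CM and was called lower in PK at NEI with the replicate block (adjusted p = 0.0328, edgeR) and not without it (0.0661). XLOC_010623, XLOC_004654 and both organ-specific protein S2 entries, XLOC_002107 and XLOC_017130, were not called at either stage. With the replicate block XLOC_010623 passed as higher (adjusted p = 0.0206) and XLOC_002107 as lower in PK (adjusted p = 0.0333, edgeR), both at pre-NEI.

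Stage comparisons asked what changes when initiation cells appear, and edgeR's quasi-likelihood test called no member. From pre-NEI to NEI, 0 members were called in PK (background 0.0%), 0 in CM (background 0.0%) and 0 in the interaction of stage and cultivar (background 0.0%). The smallest adjusted p among members was 0.995, 0.408 and 0.412. An unadjusted p under 0.05 was reached by 136 members in PK (3.96%), 197 in CM (5.73%) and 173 in the interaction (5.03%), against 3.63%, 10.3% and 8.93% of loci with a reference gene. DESeq2 called 1 member in PK (background 0.08%), 23 in CM (9 higher and 14 lower at NEI, background 2.02%) and 20 in the interaction (background 1.31%), and the exact test of edgeR called 0 in PK and 9 in CM. In these DESeq2 comparisons 0.0291%, 0.669% and 0.582% of members were called, against 0.0915%, 2.33% and 1.48% of loci with a reference gene.

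Of the loci that DESeq2 called for stage or interaction, 6 are given as values, since edgeR's quasi-likelihood test did not call them. All but XLOC_015170, which entered by its description, were chosen after their values were seen. XLOC_004551 (scaffold 2, 11238287 to 11238598, 333 bases from an annotated locus) went from 6.69 and 6.06 CPM in CM pre-NEI to 0.103 and 0.553 in CM NEI, with 0.106 to 0.192 CPM in every PK library (DESeq2 adjusted p = 0.000145, edgeR 0.408). XLOC_015170, described as a receptor kinase like the brassinosteroid co-receptor of Arabidopsis, held 3.85 and 4.01, then 0.103 and 0.609 CPM in CM, and 0.864 and 1.85, then 2.07 and 3.86 in PK. Its neighbour XLOC_015171 held 3.65 and 5.14, then 0.513 and 0.332 in CM, and 1.25 and 2.41, then 3.45 and 4.18 in PK. DESeq2 called both in the interaction (adjusted p = 0.00240 and 0.00115), where edgeR gave 0.465 for both. XLOC_003961, of the pair with equal counts, held 133 and 208 CPM in PK pre-NEI, 302 and 449 in PK NEI, 493 and 714 in CM pre-NEI, and 277 and 310 in CM NEI. It was lower in PK at pre-NEI (log2 fold change -2.16 ± 0.40, adjusted p = 0.0352, edgeR), at NEI the groups overlapped, and DESeq2 called its interaction (adjusted p = 0.00777, edgeR 0.465). XLOC_007369 (scaffold 3, 39924788 to 39928885), on the opposite strand inside an annotated locus, was the only member that DESeq2 called in PK, with 0.240 and 0.112 CPM at pre-NEI and 3.39 and 3.06 at NEI, while CM held 0.761 and 1.65, then 0.103 and 0.277 (DESeq2 adjusted p = 0.0162, edgeR 0.995). Between the cultivars DESeq2 called it lower in PK at pre-NEI (log2 fold change -3.10, adjusted p = 0.0207) and higher at NEI (4.11, adjusted p = 0.00135), and edgeR called neither (adjusted p = 0.0906 and 0.0676). In XLOC_016503, CM NEI replicate 1 alone held 44.4 CPM and no other library more than 1.91, so its DESeq2 call in CM (adjusted p = 0.00343, edgeR 0.424) rested on that library.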

How the data were processed

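The series measured mRNA by RNA-seq of ovules, and the 8 mandarin libraries were used; the table of the grapefruit and pummelo pair was not used here. The authors mapped reads to the clementine genome (version not given in the sources used here) with TopHat and Bowtie, allowing mismatches, and assembled transcripts with Cufflinks; Cuffdiff is named in the submitters' processing notes. The deposited table gave raw counts per transcript and library, FPKM pooled over replicates by the authors, transcript length, and GC content in percent as deposited. The read counter and its strand setting are not given in the sources used here.

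Each locus was represented by its transcript with the largest total count, since reads appeared to be counted for every isoform. Loci with at least 1 CPM in 2 of 8 libraries were fitted with edgeR 4.0.16 (R 4.3.3; TMM scaling, quasi-likelihood test, 4 groups, n = 2), and p was adjusted over all 18749 loci by Benjamini-Hochberg. Calls needed an adjusted p under 0.05 and a log2 fold change of at least 1. SE is the log2 fold change divided by the square root of F. DESeq2 1.42.0 and edgeR's exact test were alternatives. The procedure was tested on simulated data, with the same spread for every locus and no group made empty by design. That test does not cover calls against empty groups. Counting intervals are exact 95% binomial and floors are 3 counts per library; both cover counting error only. The replicates of a group came from consecutive years, but which number stands for which year is not given in the sources used here. Differences between replicate 1 and replicate 2 correlated between groups at 0.328 to 0.552 over all loci tested. The main fit, its counts and its adjusted p did not use this pairing. The replicate number served as a block in an alternative fit, and its values are printed beside part of the results.

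Loci were named for the 5 highest levels, the 6 largest called differences in each direction and comparison, a description that names a function, extreme length or distance, and closeness to the threshold; no stage comparison had an edgeR call to name. Loci named for a DESeq2 stage call, a window of calls or overlap were chosen after their values were seen. Members and lists were chosen with earlier results of these data known. No genome was used here, so no sequence is shown.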

Additional observations from a re-analysis of the deposited data

How the results depend on the processing

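Counts of called members moved by over 1.5 times under several alternatives, and the cause was not tested. At pre-NEI, where 298 were called, DESeq2 called 717, the exact test 554, a filter of 5 CPM 146, the sum over transcripts 183 and the replicate block 592. At NEI, where 175 were called, DESeq2 called 495, the exact test 426, the 5 CPM filter 106 and the replicate block 313, and a fit of the 4 NEI libraries alone called 0. The count called the same way at both stages, 155, became 400 with DESeq2, 353 with the exact test, 100 at 5 CPM, 278 with the replicate block and 0 with 4 libraries per fit. Over all loci tested, the share called was 3.6% at pre-NEI and 1.64% at NEI, and 10.7% and 3.33% with the replicate block. For the other alternatives no such share of these cultivar calls is given. Whether members moved more than other loci there is not shown. For stage, DESeq2 called 1 member in PK and 23 in CM and 20 in the interaction, and the exact test 9 in CM. Members read in 1 cultivar only numbered 54 at 0 counts, 227 at up to 10 counts and 77 at 2 CPM. The median length was 785 bases over the longest transcripts, the median level 2.98 CPM per kilobase or 2.46 FPKM, and the mean share of counts 1.90% when summed over transcripts and 3.09% without the 7 leading loci of high GC. The last setting, the count of overlapping loci once and the restrictions to loci without overlap and to loci read in both cultivars were chosen after seeing the data.

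Leaving out 1 library at a time gave 2 to 296 calls at pre-NEI, 2 to 75 at NEI, 2 to 39 at both stages, 136 to 156 loci in 1 cultivar only, a median level of 1.97 to 2.13 CPM, a share of 3.63% to 3.82%, and 0 calls for stage and interaction. Of 54 calls of named loci, all were made by DESeq2, the exact test and the replicate block, 33 were lost with 4 libraries per fit, and over 432 refits without 1 library 282 were lost. The sign turned in 4 uncalled log2 fold changes. For XLOC_012147 at pre-NEI the values ran from -1.34 without PK pre-NEI replicate 1 to 0.40 without PK pre-NEI replicate 2, and for XLOC_012940 from -0.19 without CM pre-NEI replicate 1 to 0.79 without CM pre-NEI replicate 2. At NEI, XLOC_015736 gave -0.13 and 0.052 and XLOC_016501 gave -0.17 and 0.027 without PK NEI replicate 1 and 2. Overlap by the span of the largest transcript was not run. With 2 libraries a group, most calls of single loci depend on each library, and 0 counts allow up to 0.120 to 0.168 CPM.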
